A study of Homo sapiens with 24 samples.

Results

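The genes described here are 34 genes of the integrated stress response, a list of ATF4 pathway and amino acid response genes, followed in A549 cells after siRNA against BOP1 and after interferon beta. All 34 were found among the 60609 gene rows of the table. Of these, 33 reached 1 TPM, a transcript count scaled for length and library total, in 3 or more libraries, and only genes at that level were tested (16062 in all). The tested members were thus selected on their TPM level. The list was proposed with results of these data known and was set out by the number at the end of each library's name, so differences between those numbers are described below without a test. A549 is an established human line from a lung adenocarcinoma, and a single line was used throughout. Every cell culture was transfected for 48 h, either with a SMARTpool of siRNAs against BOP1 (siBOP1), a factor of ribosome assembly, or with an siRNA against firefly luciferase (siFLuc), an insect gene, as the control. Medium with IFN-beta at 1000 U/mL (IFN) or a mock stimulation followed, and RNA was collected 8 h or 12 h later. The 8 groups, which share the cell line and a transfection, hold 3 libraries each, numbered 1, 2 and 4, and 24 in all. Values of a group are given below in that order.

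The integrated stress response begins when a kinase phosphorylates the translation factor eIF2. PERK responds to unfolded protein in the endoplasmic reticulum, GCN2 to uncharged tRNA, PKR to double-stranded RNA and HRI to heme shortage or mitochondrial stress. Phosphorylated eIF2 lowers translation of most mRNAs and raises that of ATF4, a transcription factor whose control is largely translational. ATF4, with C/EBP partners, activates genes for amino acid uptake and synthesis, other factors such as DDIT3 (CHOP) and ATF3, and feedback genes such as PPP1R15A, a subunit of the phosphatase that reverses the signal.

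The labels were checked on the targeted gene first. BOP1 stood at 28.1%, 23.5%, 29.6% and 24.1% of the siFLuc mean in siBOP1 cells (8 h and 12 h of mock, then 8 h and 12 h of IFN), with no overlap between groups (two-sided exact permutation p = 0.1 each, the smallest value 3 against 3 libraries allow). IFIT1, MX1 and ISG15, interferon-stimulated genes, passed the test as higher in all 4 comparisons of IFN with mock. The files hold TPM, which keep no read depth; between 13844 and 14509 genes reached 1 TPM in a library. At 12 h the libraries numbered 4 stood apart. Their log2 values correlated with those numbered 1 and 2 of the same group at r = 0.961 to 0.977, against 0.985 to 0.988 between 1 and 2, across genes, which are not independent replicates. Their share of TPM in mitochondrially encoded genes was 6.86% in siFLuc mock cells. It was 11.5%, 12.1% and 12.2% in siFLuc IFN, siBOP1 mock and siBOP1 IFN cells. The 12 h libraries numbered 1 and 2 had 12.8% to 15.9%. At 8 h the correlations with number 4 were 0.978 to 0.982, and the mitochondrial share was 10.9% to 14.2% in number 4 and 13.0% to 15.3% in numbers 1 and 2. All 5 epithelial and all 5 A549 metabolic marker genes were above 1 TPM in every library. Summed markers of leukocytes (1.83 to 5.26 TPM, 2 of 4 at 0 everywhere), endothelium (0.0340 to 0.426 TPM, 0 of 3 tested) and fibroblasts (5.71 to 19.9 TPM, 1 of 4 tested) were low.

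The level filter left the 33 tested members well represented. FGF21, a secreted metabolic hormone, was listed at 0 except in the siFLuc IFN 12 h library numbered 1, at 0.0850 TPM, and was not tested. The lowest members inside the filter were CHAC1, a glutathione-degrading enzyme, with a median of 1.83 TPM and at least 1 TPM in 21.0 libraries, and ATF3, a repressor induced by stress, with at least 1 TPM in 22 libraries. The other 31 reached 1 TPM in all 24 libraries. The lowest of those by median were CTH (2.92 TPM), SESN2 (3.07 TPM) and ALDH1L2 (3.83 TPM), a transsulfuration enzyme, a growth inhibitor and a mitochondrial folate enzyme.

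By median TPM, a scale per transcript length, the most abundant members were amino acid transporter chains and the pathway's central factor. SLC3A2, the heavy chain that carries several transporters to the membrane, had a median of 364 TPM over the 24 libraries. SLC7A5 (LAT1), its light chain for large neutral amino acids, had 291 TPM. ATF4 followed at 219.6 TPM and the mTORC1 inhibitor DDIT4 at 197 TPM. These medians are close relative to the spread across libraries: SLC7A5 ranged from 136 to 526 TPM and SLC3A2 from 246 to 700.3 TPM. The members also differed in how far their own levels spread. ATF4 and CEBPG, a C/EBP factor that pairs with ATF4, had the narrowest ranges, with the highest library 1.81-fold and 1.77-fold above the lowest. ATF3 had the widest, 57.6-fold, followed by CHAC1 (38.5-fold), PPP1R15A (30.6-fold), SESN2 (18.7-fold), DDIT3 (17.8-fold) and GDF15 (14.0-fold). In each of these 6 the highest library was numbered 4 and from 12 h. All values come from bulk RNA, in which fewer cells expressing a gene and less of its RNA per cell cannot be told apart.

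**Figure D1:**
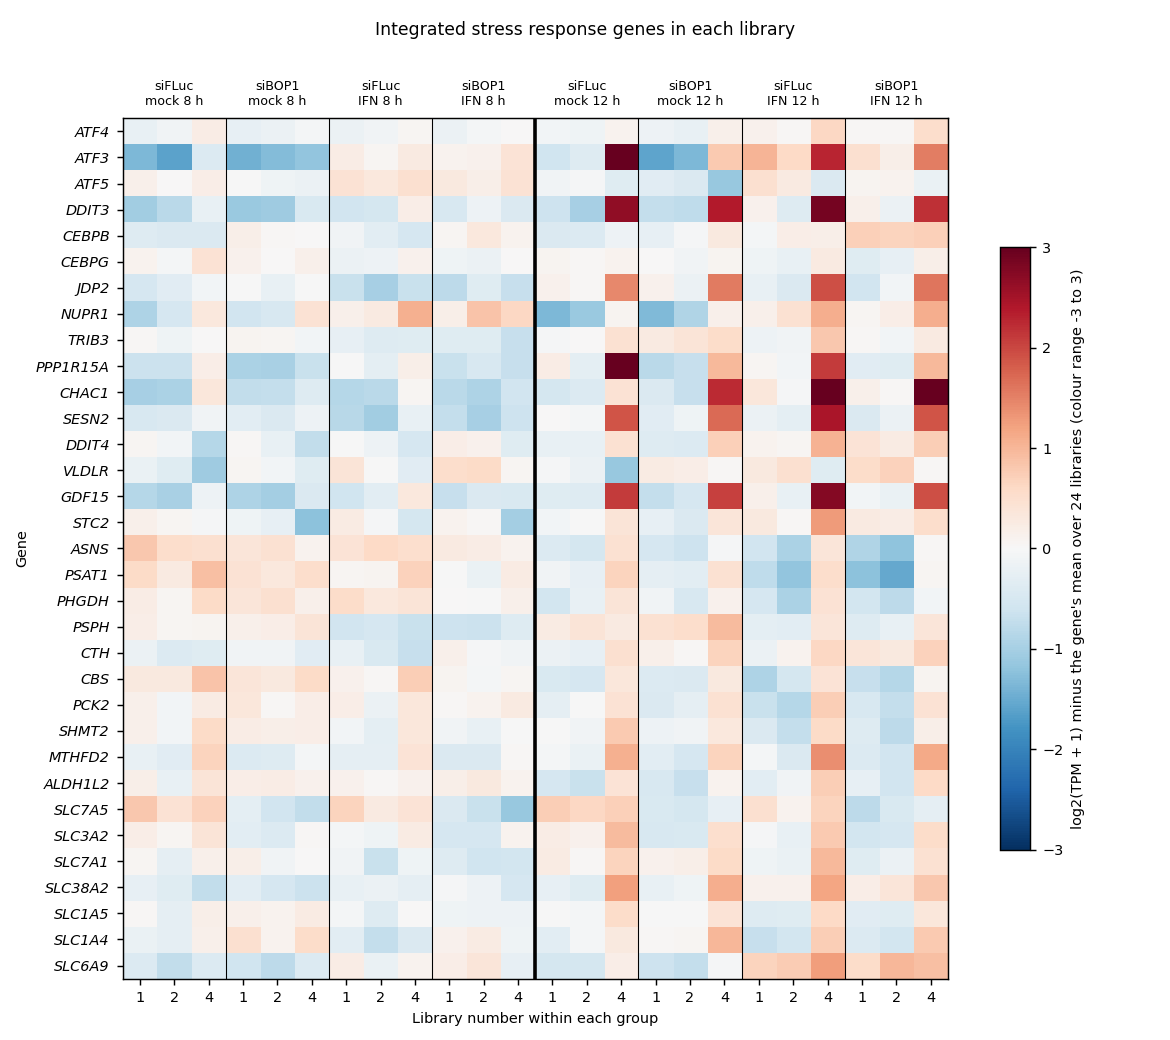
Heat map of the 33 tested members (rows, by role) in the 24 libraries (columns, by group and number); colour is log2(TPM + 1) minus the gene's mean over all libraries, drawn from -3 to 3. The columns numbered 4 at 12 h are the darkest red, as in the rows of DDIT3, GDF15 and SESN2, while the row of SLC7A5 is low across the siBOP1 columns.

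ATF4 with a C/EBP partner binds a composite element whose common form is TGATGNAA. RefSeq promoters of build GRCh38.p14, from 250 bases before to 50 after each start, were searched on both strands for it. It was present in 3.62% of 35116 promoters and in 10 of 49 member promoters (20.4%). Counted by gene, 10 of the 30 members with an entry (33.3%) held it in at least 1 promoter, against 4.46% of 27305 genes; members with more promoters had more chances to match. The members were listed because they are known for this pathway, so the excess describes the list. NUPR1, PSPH, SHMT2 and ALDH1L2 had no entry. The sites of 5 of the 10 members that hold the word are shown 5′ to 3′ on the gene's strand, with the word in capitals. It is reversed in CHAC1, where it lies on the other strand.
ASNS: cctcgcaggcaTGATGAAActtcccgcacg
ATF3: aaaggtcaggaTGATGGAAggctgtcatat
CEBPG: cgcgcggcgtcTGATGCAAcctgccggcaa
JDP2: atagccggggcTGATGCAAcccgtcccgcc
CHAC1: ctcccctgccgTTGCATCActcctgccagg
These stretches lie at chr7:97872458-97872487 (ASNS, minus strand), chr1:212565205-212565234 (ATF3, plus), chr19:33374060-33374089 (CEBPG, plus), chr14:75427995-75428024 (JDP2, plus) and chr15:40953251-40953280 (CHAC1, plus). The word began 68 bases before the transcription start in ASNS, 191 in ATF3, 42 in CEBPG, 16 in JDP2 and 209 in CHAC1. The letters were also found in SLC1A4, SLC1A5, SLC3A2, SLC7A1 and FGF21, and not in these windows of DDIT3, PPP1R15A, SESN2, GDF15, MTHFD2 or SLC7A5. A match describes letters in a window and is not a measured binding site.

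The comparison of siBOP1 with siFLuc asks how the stress response genes differ between cells given the BOP1 siRNA pool and the control siRNA. No other siRNA was used, so depletion of BOP1 and other effects of the pool cannot be told apart. A single member, SLC7A5, fell in all 4 settings, and its heavy chain partner SLC3A2 passed in all 4 with the replicate block and in none without it. CEBPB, a C/EBP factor that is both a partner and a target of the pathway, rose in mock cells at 8 h and in IFN-treated cells at 12 h. ATF4 itself did not pass in any of the 4. Differences are of log2(TPM + 1), siBOP1 minus siFLuc, tested with limma over all 24 libraries and called at a Benjamini-Hochberg adjusted p under 0.05 over 16062 genes. A fit with the library number as a replicate block was also made, since libraries of the same number deviated together. Of the 33 members, 1 rose and 1 fell in mock cells at 8 h, while 0 rose and 1 fell at 12 h. With IFN, 0 rose and 1 fell at 8 h, while 1 rose and 1 fell at 12 h. Over all tested genes the shares called were 2.16%, 1.60%, 2.0% and 0.660%. With the block the members' counts were 1 up and 3 down, 2 and 5, 2 and 2, and 1 and 2, against 8.49%, 7.66%, 8.81% and 3.77% of all genes. The members' median difference was -0.03, -0.05, -0.06 and -0.13, beside 0.03, 0.00, -0.01 and -0.01 over all tested genes.

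SLC7A5 (ENSG00000103257.9, chr16:87830023-87869488 on the minus strand of GRCh38 in GENCODE 29) was at 526, 407 and 489.8 TPM in siFLuc mock cells at 8 h and at 247, 201 and 181 TPM in siBOP1 mock cells. At 12 h the mock values were 500.3, 466 and 495 TPM with siFLuc and 218, 209 and 256 TPM with siBOP1. No siBOP1 library reached the lowest siFLuc library of its setting. Under IFN the values were 476, 364 and 398 TPM against 224, 188 and 136 TPM at 8 h, and 424, 326 and 477 TPM against 175, 221 and 248 TPM at 12 h, again without overlap. The log2 differences were -1.18 ± 0.17 (SE, limma adjusted p = 0.000807) and -1.10 ± 0.17 (adjusted p = 0.00231) under mock at 8 h and 12 h. Under IFN they were -1.19 ± 0.17 (limma adjusted p = 0.000648) and -0.92 ± 0.17 (adjusted p = 0.0119). The IFN calls were lost when only the groups compared were fitted (adjusted p = 0.0983 and 0.395). The IFN 12 h call was also lost without the siFLuc library numbered 1 or 4 or the siBOP1 library numbered 1 (0.0894, 0.0964 and 0.0859), and without all 4 libraries numbered 4 at 12 h (0.0904). SLC7A5 has annotated pseudogenes, and how shared reads were assigned is not given in the sources used here. SLC7A5P1 ranged from 0.384 to 5.32 TPM and SLC7A5P2 from 0 to 1.52 TPM.

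SLC7A5 also carries a short word that was common among all genes that fell with siBOP1. The word GCCAGTT, taken from an earlier analysis of these data, was searched on the transcript strand in the 3′ UTRs of GENCODE 29. A gene counted as holding it if any of its protein-coding transcripts did, so genes with more transcripts had more chances. The word was present in 13.1% of the 12575 tested genes with a 3′ UTR. Among genes called lower with siBOP1 it was present in 63.5%, 65.0%, 59.0% and 68.4% (mock 8 h, mock 12 h, IFN 8 h, IFN 12 h), and among those called higher in 5.60%, 5.84%, 5.18% and 3.17%. SLC7A5 itself is among the genes called lower. The word was picked in these same data, so these shares describe that choice and are no independent test. Of the 33 members, 3 (9.09%) held it, shown here as 30 bases around the word in capitals.
SLC7A5: gcatgcgcagagGCCAGTTaaagtagatca
SHMT2: agccccgggccaGCCAGTTcccactcactg
SLC7A1: ctccaggcctggGCCAGTTcttgctgctcc
In SLC7A5 the word begins at base 40 of a 2947-base 3′ UTR. SLC7A1, a cationic amino acid transporter, and SHMT2, a mitochondrial serine hydroxymethyltransferase, did not pass in any of the 4 siBOP1 comparisons in either fit. SLC7A1 differed by 0.04, -0.03, -0.22 and -0.25 and SHMT2 by -0.02, -0.20, -0.11 and -0.14 (log2, same order). The sequences of the siRNAs were not used here, and the part of the word in the lower SLC7A5 level was not tested.

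SLC3A2 pairs with SLC7A5 in the membrane. In mock cells at 8 h it was at 419, 379 and 474 TPM with siFLuc and 289.8, 274 and 374 TPM with siBOP1. At 12 h its mock values were 423, 398 and 700.3 TPM and 261, 266 and 515 TPM. In both, siBOP1 was lower within each number, while the groups' ranges meet only at 12 h, where number 4 is high. The mock differences were -0.45 and -0.57 (limma adjusted p = 0.659 and 0.47, and 0.00143 and 0.000319 with the replicate block). Under IFN at 8 h the values were 349, 330.5 and 428 TPM against 258, 255 and 388 TPM, a difference of -0.32. Under IFN at 12 h they were 355, 309.9 and 629 TPM against 246, 256 and 533 TPM, a difference of -0.35. With the replicate block these had limma adjusted p = 0.0132 and 0.0145, and 0.75 and 0.868 without it. With numbers 1 and 2 alone, all 4 SLC3A2 differences passed as well.

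CEBPB (ENSG00000172216.6, chr20:50190734-50192689) stood at 80.5, 77.8 and 77.8 TPM in siFLuc and 118, 107 and 105 TPM in siBOP1 mock cells at 8 h, without overlap. The log2 difference was 0.48 ± 0.12 (SE, limma adjusted p = 0.0456), and leaving out any 1 of the 6 libraries ended the call (0.0869 to 0.177). It was also lost without the level filter (0.0798) and with only its groups fitted (0.0653). Under IFN at 12 h it was at 100.1, 120.2 and 118 TPM and 173, 168 and 173 TPM, again without overlap, a difference of 0.61 ± 0.12 (limma adjusted p = 0.0179). That call was lost without any 1 of the 6 libraries except the siFLuc library numbered 2 (0.0585 to 0.154), and when only its groups were fitted (0.285). Its other differences, 0.33 under mock at 12 h and 0.47 under IFN at 8 h, passed with the replicate block and not without it (limma adjusted p = 0.0476 and 0.00733, against 0.224 and 0.0523). The IFN difference at 8 h also passed after median-of-ratios rescaling (0.0178), after quantile normalization (0.0453) and with the libraries numbered 4 at 12 h left out (0.014).

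Other members differed between siBOP1 and siFLuc past the threshold with the replicate block and not without it, most of them under mock at 12 h. ATF3 was at 2.67, 3.26 and 48.1 TPM with siFLuc and 0.855, 1.19 and 8.69 TPM with siBOP1, a log2 difference of -1.43 (limma adjusted p = 0.0227 with the block, 0.429 without). PPP1R15A, the stress-induced phosphatase subunit, was at 38.9, 26.9 and 496 TPM and 18.4, 20.0 and 66.1 TPM, a difference of -1.45 (limma adjusted p = 0.0198 with the block, 0.443 without). Both genes were lower with siBOP1 within each number, and the gap was widest in number 4. ATF5, a factor related to ATF4, was at 35.0, 37.0 and 29.2 TPM and 29.6, 27.7 and 16.7 TPM (-0.47, limma adjusted p = 0.0107 with the block, 0.288 without). VLDLR, a lipoprotein receptor, went the other way, from 23.9, 21.8 and 10.6 TPM to 29.5, 28.5 and 25.3 TPM (0.62, limma adjusted p = 0.0126 with the block, 0.365 without). Under mock at 8 h, STC2, a secreted glycoprotein, was at 49.2, 46.1 and 43.1 TPM with siFLuc and 39.9, 36.8 and 18.1 TPM with siBOP1 (-0.61, limma adjusted p = 0.0414 with the block, 0.488 without). Under IFN at 8 h, CTH was at 2.61, 2.04 and 1.62 TPM and 3.69, 3.12 and 2.91 TPM (0.46, limma adjusted p = 0.0197 with the block, 0.355 without).

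ATF4 mRNA did not pass in any siRNA comparison. It was at 196, 213 and 266 TPM with siFLuc and 195, 202 and 220.0 TPM with siBOP1 under mock at 8 h, and at 216, 209 and 245 TPM and 208, 198 and 257 TPM at 12 h. The ranges overlapped at both times, and the differences of -0.12 ± 0.15 and -0.02 ± 0.15 (SE) did not pass (limma adjusted p = 0.861 and 0.979). DDIT3 (CHOP), a pro-apoptotic target of ATF4, differed by -0.19 and -0.05 under mock and by -0.06 and -0.15 under IFN, none past the threshold in either fit. ASNS, asparagine synthetase, differed by -0.29, -0.23, -0.31 and -0.30, and TRIB3, a pseudokinase that feeds back on ATF4, by 0.05, 0.25, -0.14 and -0.11, likewise without a call in either fit.

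**Figure D2:**
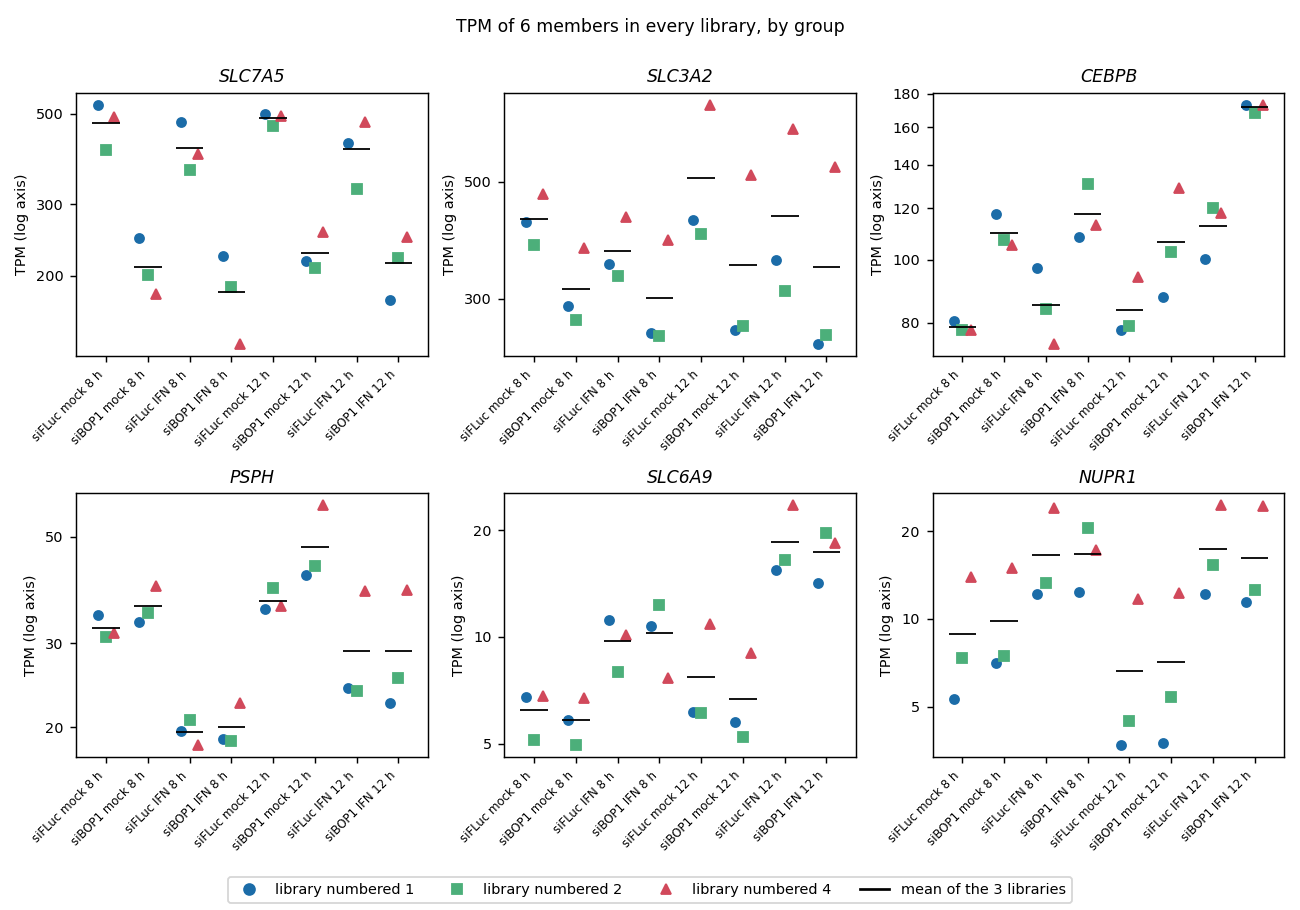
TPM (log axis) of SLC7A5, SLC3A2, CEBPB, PSPH, SLC6A9 and NUPR1 in the 8 groups; each marker is 1 library, shaped by its number, and the line is the mean of 3. By their means, SLC7A5 is lower in each siBOP1 group than in its siFLuc group, PSPH is lower with IFN, and SLC6A9 and NUPR1 are higher with IFN.

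The comparison of IFN with mock asks how the stress response genes move when interferon signalling is added. PSPH, the last enzyme of serine synthesis, fell, and the glycine transporter SLC6A9, the stress factor NUPR1 and CEBPB rose. ATF4 mRNA and most of its targets did not pass in the fit without the replicate block. Without it, 0 members rose and 1 fell at 8 h in the siFLuc control, and 3 rose and 0 fell there at 12 h. With siBOP1, 1 member rose and 1 fell at 8 h, while 3 rose and 1 fell at 12 h. The shares of all tested genes called were 10.8%, 13.5%, 15.1% and 14.8%. With the block the members' counts were 5 up and 1 down, 8 and 4, 5 and 8, and 7 and 3, against 21.0%, 26.9%, 29.0% and 27.9% of all genes. The members' median differences, -0.08, 0.04, -0.05 and 0.10, stood beside -0.09, -0.06, -0.14 and -0.08 over all tested genes. In siBOP1 cells at 8 h, rescaling the libraries by median of ratios moved the median of all genes from -0.14 to -0.01, so differences of that size there depend on the scaling. The same rescaling changed the split of all genes called higher and lower from 927 and 814 to 1128 and 532 in siFLuc cells at 8 h, and from 962 and 1464 to 1302 and 728 in siBOP1 cells at 8 h.

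Among the amino acid synthesis enzymes, PSPH (ENSG00000146733.14, chr7:56011051-56051604, minus strand) was at 34.4, 30.9 and 31.5 TPM in siFLuc mock cells at 8 h and 19.7, 20.7 and 18.4 TPM with IFN. In siBOP1 cells at 8 h it was at 33.2, 34.6 and 39.5 TPM with mock and 19.0, 18.7 and 22.5 TPM with IFN. All IFN libraries lay below all mock libraries of both. The log2 differences were -0.69 ± 0.18 (SE, limma adjusted p = 0.0143) with siFLuc and -0.81 ± 0.18 (adjusted p = 0.00349) with siBOP1. The siFLuc call was lost without the mock library numbered 1 or the IFN library numbered 4 (adjusted p = 0.0602 and 0.0514). At 12 h the siBOP1 values were 41.5, 43.5 and 58.1 TPM with mock and 22.4, 25.3 and 38.8 TPM with IFN, a difference of -0.73 ± 0.18 (limma adjusted p = 0.0075). This call was lost without the mock library numbered 4 or the IFN library numbered 1 (0.0524 and 0.0606) and with only its groups fitted (0.0955). In siFLuc cells at 12 h the values, 35.4, 39.1 and 35.9 TPM and 24.2, 23.8 and 38.5 TPM, overlapped through number 4, and -0.38 passed with the replicate block (limma adjusted p = 0.0354) and not without it (0.186). The PSPH pseudogene PSPHP1 was listed at 0 in every library.

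PSAT1, the enzyme before PSPH in serine synthesis, passed with the replicate block, and not without it, in 3 comparisons, and was lower with IFN within each number of these. In siFLuc cells at 12 h it was at 86.5, 78.7 and 150.2 TPM with mock and 54.6, 40.7 and 135 TPM with IFN (-0.58, limma adjusted p = 0.00586 with the block, 0.368 without). In siBOP1 cells at 12 h the values were 77.9, 74.6 and 129 TPM and 39.2, 31.8 and 96.5 TPM (-0.86, limma adjusted p = 0.000227 with the block, 0.15 without). The 12 h groups overlapped, with number 4 the highest library of each. In siBOP1 cells at 8 h the values were 127, 117 and 135 TPM and 92.1, 81.8 and 110.1 TPM (-0.42, limma adjusted p = 0.0349 with the block, 0.519 without), with no overlap. PHGDH, the first enzyme of the same route, differed by 0.14, -0.21, -0.28 and -0.32 (siFLuc 8 h and 12 h, siBOP1 8 h and 12 h), with no call in either fit. CBS, which makes cystathionine, was at 9.27, 8.88 and 10.9 TPM with mock and 7.52, 6.73 and 7.43 TPM with IFN in siBOP1 cells at 8 h (-0.37, limma adjusted p = 0.0473 with the block, 0.473 without). The assembly holds a near-identical copy of CBS that was not analysed here, so its values are uncertain. The one-carbon enzyme SHMT2 was at 56.3, 53.1 and 99.4 TPM and 41.7, 34.3 and 85.4 TPM in siFLuc cells at 12 h (-0.42, limma adjusted p = 0.0278 with the block, 0.393 without).

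Of the transporters, SLC6A9 (ENSG00000196517.11, chr1:43991500-44031467, minus strand) rose. At 12 h it was at 6.16, 6.12 and 10.9 TPM with mock and 15.4, 16.5 and 23.5 TPM with IFN in siFLuc cells, and at 5.75, 5.23 and 9.04 TPM and 14.2, 19.6 and 18.4 TPM in siBOP1 cells. All IFN libraries lay above all mock libraries of both. The differences were 1.18 ± 0.23 (SE, limma adjusted p = 0.000966) and 1.28 ± 0.23 (adjusted p = 0.000391). Each remained past the threshold without any 1 library of its comparison, while the siFLuc call was lost with only its groups fitted (0.0573). At 8 h the siFLuc values were 6.79, 5.13 and 6.80 TPM and 11.1, 7.99 and 10.1 TPM, and 0.57 did not pass as fitted (limma adjusted p = 0.131). It passed with the replicate block (0.025), after median-of-ratios rescaling (0.0338) or quantile normalization (0.0268), with numbers 1 and 2 alone (0.0434) and with the libraries numbered 4 at 12 h left out (0.0292). The siBOP1 values at 8 h were 5.82, 4.96 and 6.71 TPM and 10.8, 12.3 and 7.65 TPM, a rise of 0.70 ± 0.23 (limma adjusted p = 0.0417). That call was lost without any 1 of 5 of its 6 libraries, all but the IFN library numbered 4 (0.0529 to 0.186), and without the level filter (0.0878).

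With the replicate block and not without it, 3 other transporters passed for IFN, in 1 comparison each. In siBOP1 cells at 8 h the cationic transporter SLC7A1 was at 19.7, 16.1 and 17.5 TPM with mock and 13.0, 11.1 and 11.6 TPM with IFN (-0.54, limma adjusted p = 0.00517 with the block, 0.181 without). The glutamine transporter SLC1A5 was at 145, 141 and 155 TPM and 119.7, 118 and 118 TPM there (-0.31, limma adjusted p = 0.0221 with the block, 0.408 without). SLC3A2 was at the siFLuc values given above at 12 h, a difference of -0.26 between IFN and mock (limma adjusted p = 0.0162 with the block, 0.658 without). Without the siFLuc mock library numbered 4 and with its IFN partner still in, that difference was 0.000431. With numbers 1 and 2 alone it was -0.31 (limma adjusted p = 0.0112), and SLC3A2 was lower with IFN within each number. SLC7A5, SLC38A2 and SLC1A4 did not pass in any IFN comparison in either fit.

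Among the transcription factors, NUPR1 (ENSG00000176046.8, chr16:28532708-28539174, minus strand) was at 3.70, 4.46 and 11.7 TPM with mock and 12.2, 15.3 and 24.5 TPM with IFN in siFLuc cells at 12 h. All 3 IFN libraries were above all 3 mock libraries, and number 4 was the highest of each group. It rose by 1.36 ± 0.44 (SE, limma adjusted p = 0.0438). The call was lost without the mock library numbered 1 or 2 or the IFN library numbered 2 or 4 (0.169, 0.138, 0.0902 and 0.140), without the level filter (0.105) and with only its groups fitted (0.147). At 8 h the siFLuc values were 5.30, 7.36 and 13.9 TPM and 12.1, 13.3 and 24.1 TPM. In siBOP1 cells they were 7.04, 7.47 and 15 TPM and 12.4, 20.6 and 17.2 TPM at 8 h, and 3.76, 5.39 and 12.3 TPM and 11.4, 12.6 and 24.4 TPM at 12 h. These 3 groups overlapped through the mock library numbered 4, and their differences of 0.86, 0.76 and 1.14 passed with the replicate block (limma adjusted p = 0.00182, 0.00365 and 0.000117) and not without it (0.252, 0.274 and 0.0888).

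CEBPB rose with IFN at 12 h. Its siFLuc values were 77.8, 79.1 and 93.9 TPM with mock and 100.1, 120.2 and 118 TPM with IFN, and its siBOP1 values 87.5, 103 and 129 TPM and 173, 168 and 173 TPM. No IFN library fell to the mock range. The differences were 0.43 ± 0.12 (SE, limma adjusted p = 0.0217) and 0.70 ± 0.12 (adjusted p = 0.000303). The siBOP1 call remained without any 1 library of its comparison. The siFLuc call was lost without the mock library numbered 1 or 2 or the IFN library numbered 2 or 4 (0.0863, 0.0786, 0.0996 and 0.0613) and with only its groups fitted (0.0962). ATF5 was at 29.6, 27.7 and 16.7 TPM with mock and 40.4, 41.0 and 32.9 TPM with IFN in siBOP1 cells at 12 h and rose by 0.64 ± 0.19 (limma adjusted p = 0.0283). Leaving out the low mock library numbered 4 lowered that to 0.39 (adjusted p = 0.181), and leaving out the IFN library numbered 1 or 2 also ended the call (0.0961 and 0.111). It was lost as well without the level filter (0.0633), after quantile normalization (0.0717) and with only its groups fitted (0.125). At 8 h the siBOP1 values of ATF5 were 37.4, 34.6 and 33.5 TPM and 46.8, 42.8 and 51.3 TPM, and 0.41 passed with the replicate block (limma adjusted p = 0.00713) and not without it (0.172).

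ATF3 and ATF4 passed with the replicate block and not without it. ATF3 was at 1.21, 0.834 and 3.18 TPM with mock and 5.49, 4.81 and 5.75 TPM with IFN in siFLuc cells at 8 h, and at 1.06, 1.27 and 1.47 TPM and 5.04, 5.15 and 6.37 TPM in siBOP1 cells. All IFN libraries were above all mock libraries there, with differences of 1.30 and 1.52 (limma adjusted p = 0.0154 and 0.00442 with the block, 0.304 and 0.176 without). At 12 h the siBOP1 values were 0.855, 1.19 and 8.69 TPM and 6.86, 5.27 and 15.2 TPM (1.45, limma adjusted p = 0.00632 with the block, 0.206 without). In siFLuc cells at 12 h the numbers moved in opposite directions: 2.67, 3.26 and 48.1 TPM with mock and 10.4, 7.48 and 26.3 TPM with IFN, higher with IFN in numbers 1 and 2 and lower in number 4. That difference of 0.59 did not pass in either fit (limma adjusted p = 0.66, 0.245 with the block). Fitted on numbers 1 and 2 alone it was 1.31 (adjusted p = 0.000349).

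ATF4 at 12 h was at 216, 209 and 245 TPM with mock and 252, 237 and 353 TPM with IFN in siFLuc cells, and 208, 198 and 257 TPM and 234, 235 and 329 TPM in siBOP1 cells. It was higher with IFN within each number of both. The differences, 0.31 and 0.26, passed with the replicate block (limma adjusted p = 0.00231 and 0.00782) and not without it (0.197 and 0.289). At 8 h they were -0.04 and 0.09, with no call in either fit. The annotated ATF4 pseudogenes P1 to P4 were at 0.834 TPM or less. JDP2, a repressor of the same dimer family, was at 8.49, 7.31 and 8.60 TPM and 4.60, 6.45 and 5.00 TPM in siBOP1 cells at 8 h and its difference passed with the block and not without it (-0.53, limma adjusted p = 0.0406 and 0.582). DDIT3 did not pass in either fit; with siFLuc at 8 h it was at 7.40, 8.76 and 13.7 TPM with mock and 10.5, 10.9 and 18.7 TPM with IFN. With numbers 1 and 2 alone its IFN differences were 0.37, 0.68, 0.77 and 0.73 (siFLuc 8 h and 12 h, siBOP1 8 h and 12 h; limma adjusted p = 0.213, 0.0221, 0.0114 and 0.0136).

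The feedback, growth and secreted members named next passed with the replicate block and not in the fit without it. DDIT4, which restrains mTORC1 under stress, was at 166, 166 and 268 TPM with mock and 209, 202 and 401 TPM with IFN in siFLuc cells at 12 h (0.40, limma adjusted p = 0.0136 with the block, 0.471 without), and at 149, 147 and 321 TPM and 257, 232 and 326 TPM in siBOP1 cells (0.49, 0.00357 and 0.349). VLDLR was at 21.2, 18.9 and 11.2 TPM and 32.7, 24.3 and 19.2 TPM in siFLuc cells at 8 h (0.56, limma adjusted p = 0.00806 with the block, 0.251 without). At 12 h VLDLR moved from the mock values above to 30.4, 34.6 and 19.0 TPM (0.59, 0.00461 with the block), and in siBOP1 cells at 8 h from 25.8, 23.0 and 19.0 TPM to 35.8, 36.9 and 25.8 TPM (0.51, 0.0108). It was higher with IFN within each number of these 3 settings. CHAC1 was at 1.66, 1.85 and 4.14 TPM and 3.81, 2.73 and 34.9 TPM in siFLuc cells at 12 h (1.35, limma adjusted p = 0.00749 with the block, 0.314 without), with the widest gap in number 4. In siBOP1 cells TRIB3 was lower with IFN than with mock. At 8 h it was at 94.8, 92.6 and 83.8 TPM with mock and 69.0, 69.1 and 55.1 TPM with IFN (-0.49, limma adjusted p = 0.0042 with the block, 0.0837 without). The 8 h difference also passed after quantile normalization (0.0435), with only its groups fitted (0.0276), with numbers 1 and 2 alone (0.00181) and with the libraries numbered 4 at 12 h left out (0.000608). At 12 h TRIB3 was at 108, 116 and 131 TPM and 91.4, 84.1 and 108 TPM (-0.32, 0.0453 with the block). Both TRIB3 differences had the same direction in each number. In siFLuc cells TRIB3 passed in neither fit. It was at 91.0, 80.8 and 89.1 TPM with mock and 74.8, 68.0 and 68.9 TPM with IFN at 8 h, without overlap. At 12 h the siFLuc values were 86.6, 90.4 and 123 TPM and 80.1, 83.3 and 157 TPM, with number 4 higher under IFN. SESN2, which signals leucine shortage to mTORC1, was at 2.94, 2.63 and 3.42 TPM and 1.95, 1.46 and 2.17 TPM in siBOP1 cells at 8 h (-0.49, limma adjusted p = 0.0319 with the block, 0.688 without). GDF15, a secreted stress cytokine, was at 36.4, 33.2 and 59.5 TPM and 43.1, 53 and 82.0 TPM in siFLuc cells at 8 h (0.45, limma adjusted p = 0.0475 with the block, 0.797 without). At 12 h GDF15 was at 51.5, 50.2 and 288 TPM and 73.2, 56.8 and 451 TPM (0.44, 0.0438 with the block). Without the siFLuc IFN library numbered 4, and with its mock partner still in, the 12 h difference was -0.49. With numbers 1 and 2 alone it was 0.34 (limma adjusted p = 0.104), and GDF15 was higher with IFN within each number.

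Of the 33 members, 9 passed in no comparison of IFN or siRNA in either fit: DDIT3, CEBPG, ASNS, PHGDH, PCK2, MTHFD2, ALDH1L2, SLC38A2 and SLC1A4. CEBPG stayed between 23.3 and 41.3 TPM in the 24 libraries, and its IFN differences ran from -0.23 to -0.09. SLC1A4, a neutral amino acid transporter, ranged from 3.18 to 12.7 TPM, with IFN differences of -0.39, -0.14, -0.29 and -0.43. In siFLuc cells at 8 h its groups did not overlap (4.97, 4.70 and 6.62 TPM with mock, 4.46, 3.18 and 4.08 TPM with IFN), yet the difference did not pass (limma adjusted p = 0.57). MTHFD2 ranged from 54.4 to 218 TPM, ALDH1L2 from 1.75 to 6.47 TPM, PCK2 from 13.3 to 42.1 TPM and SLC38A2 from 103 to 409.8 TPM. For these 4 the IFN and mock groups overlapped in all 4 comparisons.

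**Figure D3:**
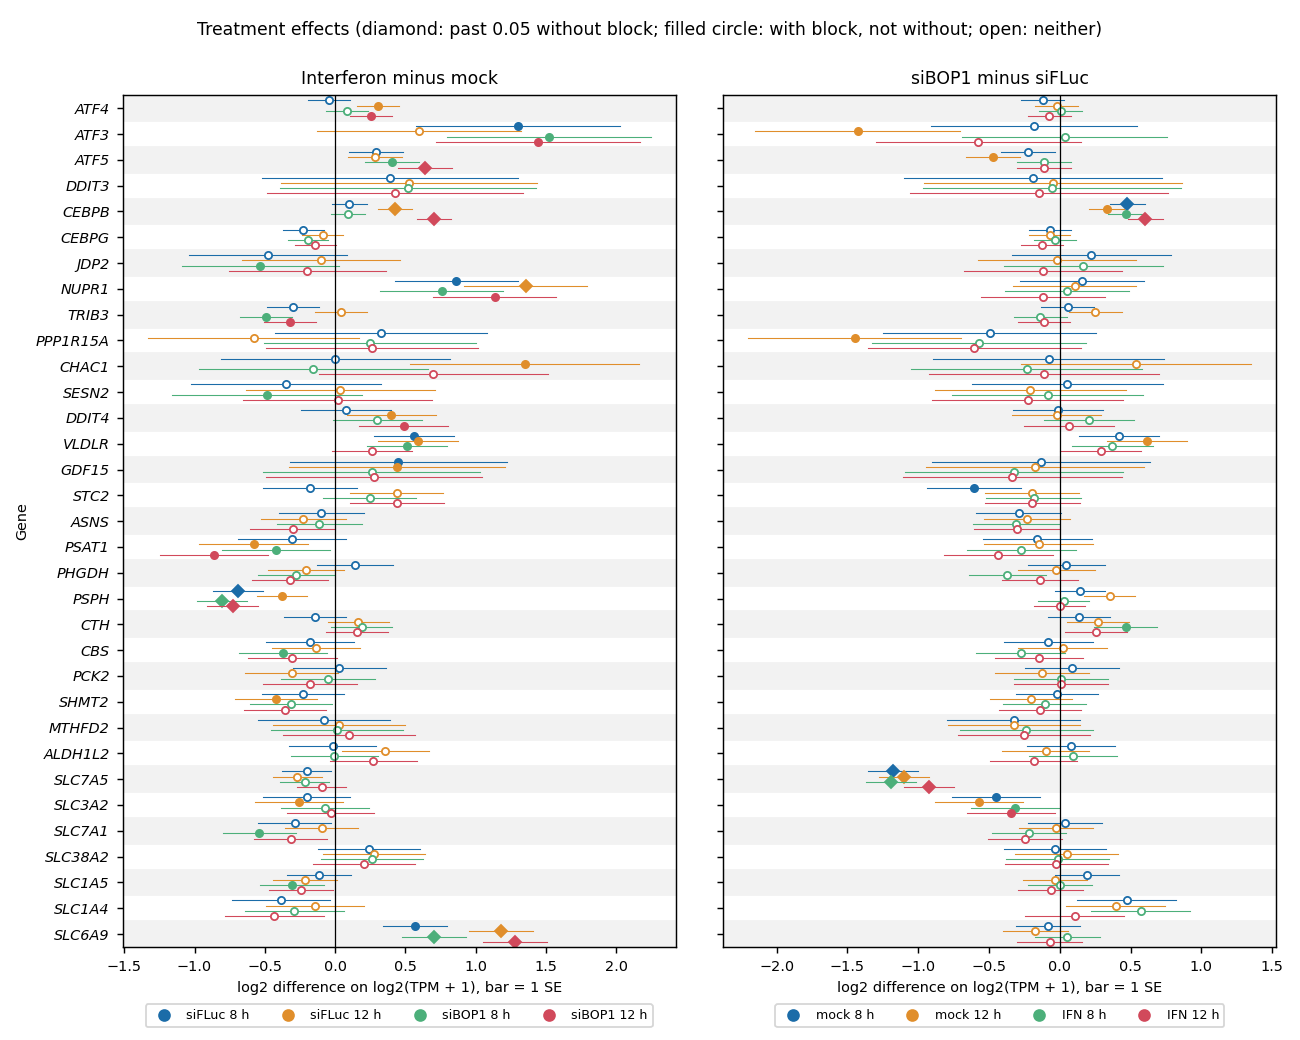
Log2 differences of the 33 tested members, IFN minus mock on the left and siBOP1 minus siFLuc on the right, with bars of 1 SE; diamonds mark differences that passed an adjusted p of 0.05 without the replicate block, filled circles those that passed with it and not without it, and open circles those that passed in neither. PSPH lies left of 0 and SLC6A9 and NUPR1 right of 0 under IFN, and SLC7A5 lies left of 0 as a diamond in all 4 siBOP1 comparisons.

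Whether the IFN difference changed with the BOP1 siRNA pool was tested as an interaction. Of the 33 members, 0 passed at 8 h and 0 at 12 h, as did 0% and 0% of all genes without the block and 0% and 0% with it (limma). At an unadjusted p under 0.05, 0 members were found at either time without the block, and 0 at 8 h and 3 at 12 h with it; over all genes the counts were 353 and 259 without the block and 806 and 671 with it. For SLC7A5 the interaction was -0.02 ± 0.25 at 8 h and 0.17 ± 0.25 at 12 h. For PSPH it was -0.11 ± 0.25 and -0.35 ± 0.25 (log2, SE). These errors leave room for differences of some size, and the missed threshold does not show that the responses are alike.

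Other genes of the pathway were followed as lists, with counts for IFN against mock given for siFLuc at 8 h and 12 h, then siBOP1 at 8 h and 12 h. All these lists stand beside the shares of all tested genes called in either direction. These were 10.8%, 13.5%, 15.1% and 14.8%, and 21.0%, 26.9%, 29.0% and 27.9% with the replicate block. Of the 4 eIF2 kinases, 1 rose in each, EIF2AK2 (PKR), itself an interferon-stimulated gene, by 2.78, 2.56, 2.77 and 2.60 (limma adjusted p = 7.68e-13, 3.32e-12, 8.13e-13 and 2.51e-12). It went, for example, from 26.4, 29.8 and 28.3 TPM to 214, 202 and 181 TPM in siFLuc cells at 8 h, without overlap. EIF2AK1 (HRI) fell in siFLuc cells at 12 h (-0.30) and EIF2AK4 (GCN2) in siBOP1 cells at 8 h (-0.51). Of the 12 subunits of eIF2, eIF2B and the eIF2 phosphatases, 0, 0, 0 and 2 fell and 0 rose; the 2 were EIF2B4 (-0.34) and PPP1CA (-0.28). With the replicate block 0, 2, 0 and 2 of these rose and 2, 4, 3 and 5 fell. Of 5 regulators of the kinases 0 passed, and with the block 1, 0, 1 and 0 fell.

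Among 9 tested of 11 further ATF4 targets, 0, 1, 2 and 2 fell and 0 rose, and with the replicate block 2, 3, 3 and 4 fell and 0, 0, 0 and 1 rose. SLC7A11, the cystine transporter chain that also pairs with SLC3A2, fell in siBOP1 cells, from 56.1, 49.3 and 41.0 TPM to 29.1, 26.0 and 22.4 TPM at 8 h (-0.89 ± 0.24, limma adjusted p = 0.0139). At 12 h it went from 63.0, 63.9 and 94.6 TPM to 31.6, 36.7 and 60.3 TPM (-0.80 ± 0.24, limma adjusted p = 0.0267). In siFLuc cells SLC7A11 did not pass without the block. At 8 h it was also lower there, from 47.7, 40.7 and 33.4 TPM to 26.9, 22.1 and 23.1 TPM, without overlap. At 12 h the siFLuc values were 60.7, 54.9 and 56.1 TPM and 33.7, 31.3 and 63.4 TPM, with number 4 higher under IFN. PYCR1, a proline synthesis enzyme, fell at 12 h, from 63.7, 61.7 and 65.1 TPM to 37.9, 34.6 and 53.7 TPM with siFLuc (-0.61, limma adjusted p = 0.00923) and from 55.1, 60.6 and 54.2 TPM to 30.5, 25.9 and 38.7 TPM with siBOP1 (-0.83, 0.000564). All PYCR1 libraries with IFN lay below all with mock at 12 h. ALDH18A1, which acts before PYCR1 in the same route, fell in siBOP1 cells at 8 h (-0.43).

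Of 12 cytosolic tRNA synthetases, 1 rose in each comparison and 1, 0, 1 and 2 fell, with 3, 3, 7 and 3 lower with the replicate block. The gene that rose was WARS1, the tryptophanyl enzyme, which is known as interferon-inducible, by 2.48, 2.87, 2.75 and 3.03. NARS1, the asparaginyl enzyme, fell by these log2 differences in 3 of them: -0.37 (siFLuc 8 h), -0.35 (siBOP1 8 h) and -0.37 (siBOP1 12 h). EPRS1, for glutamate and proline, fell in siBOP1 cells at 12 h (-0.54). Of 14 genes of the ATF6 and IRE1 arms of the unfolded protein response, 0, 3, 0 and 3 rose and 0 fell, with 6, 7, 3 and 6 higher with the block. The chaperone HSPA5 (BiP) was at 216, 218 and 304 TPM with mock and 310.3, 334 and 440.2 TPM with IFN in siFLuc cells at 12 h and rose by 0.56 (limma adjusted p = 0.0109); with siBOP1 it rose by 0.51. HSP90B1 (GRP94) rose by 0.33 and 0.26 and PDIA4 by 0.30 and 0.28 at 12 h. Of 14 p53 targets, a group to which the members GDF15 and SESN2 are also known to belong, 1 rose and 3 fell in each comparison, with 4, 5, 7 and 8 lower with the block. For these lists the counts with the block are given in 1 direction only. The death receptor FAS rose, by 0.90, 0.85, 0.99 and 0.78. BBC3 did not pass without the block but was higher with IFN within each number of all 4 comparisons. In siFLuc cells at 8 h it went from 10.5, 9.29 and 11.1 TPM to 24.5, 21.7 and 24.0 TPM, without overlap. ZMAT3, an RNA-binding protein, fell (-1.66, -1.10, -1.77 and -1.10), as did PHLDA3 (-0.55, -0.49, -0.67 and -0.44) and TP53I3 (-0.35, -0.45, -0.34 and -0.49).

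In the comparison of siBOP1 with siFLuc few genes of these lists passed without the replicate block. Of the 14 unfolded protein response genes 1, 1, 0 and 0 rose (mock 8 h, mock 12 h, IFN 8 h, IFN 12 h), namely HSP90B1 by 0.37 and 0.30. With the block 5, 2, 4 and 1 rose and 0, 1, 2 and 1 fell. PPP1CC, a catalytic subunit that can serve in the eIF2 phosphatases, rose by 0.70 ± 0.16 under mock at 8 h (limma adjusted p = 0.0183). Of the p53 targets 0 passed, and 3, 1, 1 and 1 rose with the block. No other gene of these lists passed in the siBOP1 comparisons without the block.

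The widest differences among the members lay between libraries of 1 group. In all 4 groups at 12 h, the library numbered 4 was at least 1 log2 unit above the mean of numbers 1 and 2 for 7 members: DDIT3, GDF15, PPP1R15A, ATF3, SESN2, JDP2 and MTHFD2. The list was set out by this number, so the counts describe it and carry no test; over all tested genes the share was 0.367%. Of the 33 members, 30 were above 0 in all 4 groups at 12 h, ATF5 and VLDLR were below 0 in all 4, and PSPH was above 0 in 3. Most genes were also above 0 in each group at 12 h. The counts were 9852 (siFLuc mock), 10389 (siFLuc IFN), 9928 (siBOP1 mock) and 10180 (siBOP1 IFN) of 16062 tested genes. The members' counts were 30, 31, 31 and 31 in the same order. How many of all genes were above 0 in all 4 groups was not counted. No member reached 1 log2 unit in all 4 groups at 8 h. By group, 10 members in siFLuc mock, 18 in siFLuc IFN, 11 in siBOP1 mock and 14 in siBOP1 IFN cells were higher by 1 or more at 12 h, against 4.33%, 2.96%, 2.30% and 1.68% of all genes. At 8 h the counts were 3, 0, 0 and 0, against 1.12%, 0.878%, 1.18% and 1.10%. The members' median at 12 h was 0.76, 1.12, 0.70 and 0.76, beside 0.13, 0.14, 0.09 and 0.12 over all tested genes. The number marks neither a treatment nor a stated batch in the labels, which count replicates only up to 3.

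**Figure D4:**
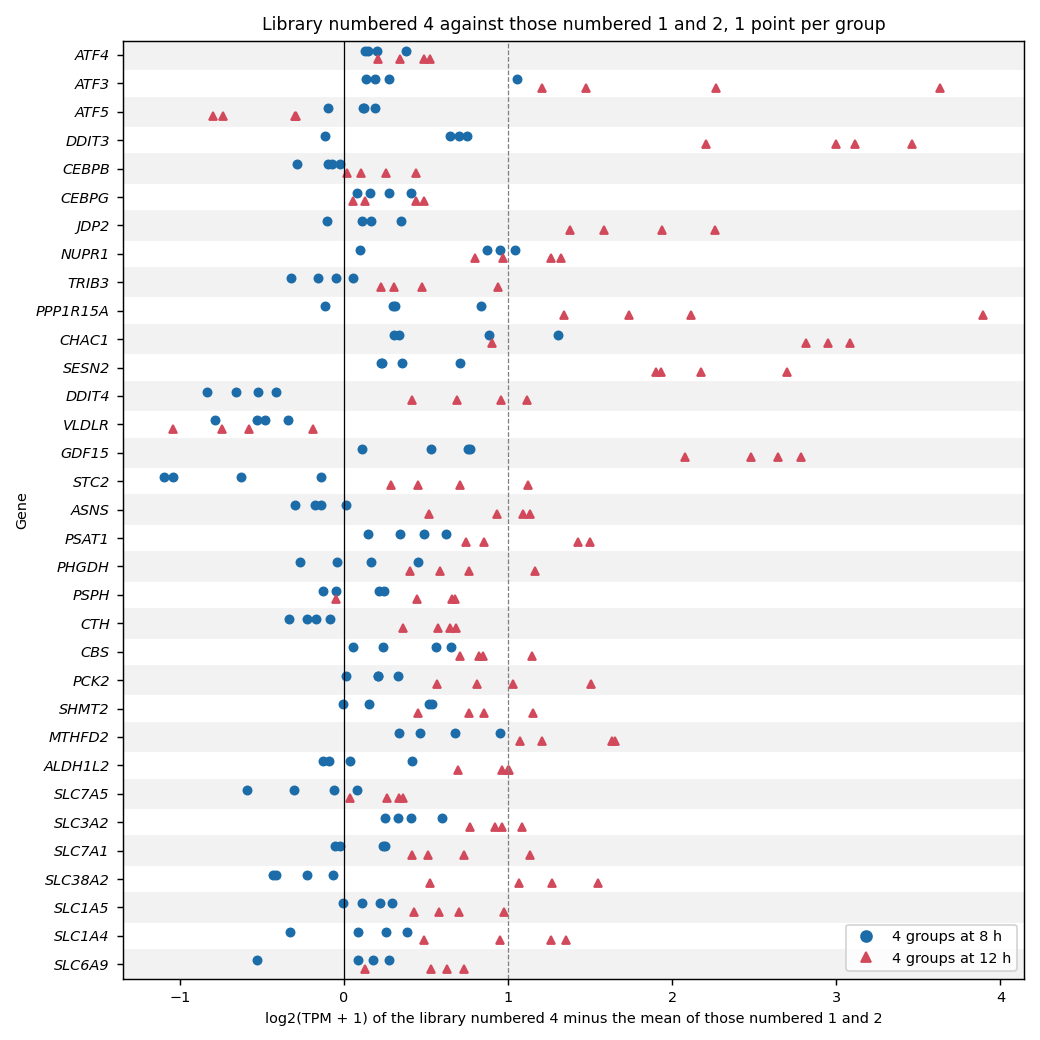
Log2(TPM + 1) of the library numbered 4 minus the mean of numbers 1 and 2, for each tested member; circles are the 4 groups at 8 h and triangles the 4 groups at 12 h, and the dashed line marks 1. The triangles of DDIT3, GDF15, PPP1R15A, ATF3, SESN2, JDP2 and MTHFD2 all lie past the line.

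DDIT3 (ENSG00000175197.12, chr12:57516588-57521737, minus strand) was at 10.1, 7.62 and 107 TPM in siFLuc mock, 17.9, 12.1 and 124 TPM in siFLuc IFN, 9.48, 9.06 and 87.9 TPM in siBOP1 mock and 18.0, 14.3 and 77.6 TPM in siBOP1 IFN cells at 12 h. Each number 4 library was above every library numbered 1 or 2 in the series. At 8 h its highest number 4 value was 18.7 TPM. GDF15 (ENSG00000130513.6, chr19:18374731-18389176) was at 51.5, 50.2 and 288 TPM, 73.2, 56.8 and 451 TPM, 40.1, 46.7 and 276 TPM and 62.7, 57.9 and 257 TPM in the same order, again with number 4 above all else. PPP1R15A (ENSG00000087074.8, chr19:48872392-48876057) was at 38.9, 26.9 and 496 TPM, 34.5, 31.0 and 145 TPM, 18.4, 20.0 and 66.1 TPM and 25.7, 25.4 and 66.1 TPM. Its number 4 libraries differed among themselves, with siFLuc mock far above both siBOP1 libraries. SESN2 was at 3.94, 3.71 and 17.0 TPM, 3.29, 2.95 and 25.8 TPM, 2.88, 3.43 and 14.8 TPM and 2.62, 3.35 and 16.9 TPM, and JDP2 at 9.46, 8.80 and 25.3 TPM, 7.24, 6.18 and 35.9 TPM, 9.52, 7.60 and 27.5 TPM and 5.44, 8.10 and 28.3 TPM. MTHFD2, a mitochondrial folate enzyme that provides one-carbon units, was at 78.3, 70.9 and 173 TPM, 77.9, 60.1 and 218 TPM, 65.3, 57.5 and 130.2 TPM and 61.0, 54.4 and 181 TPM. ATF4 mRNA differed far less, by 0.21, 0.53, 0.34 and 0.49 log2 units. CHAC1 differed by 0.90, 3.08, 2.81 and 2.95, so it missed 1 only in siFLuc mock cells. Of the 7 members, ATF3 (1 of 2 promoters) and JDP2 (1 of 3) held the ATF4 element shown above, beside 10 of the 30 members with an entry. Only 250 bases before and 50 after each start were searched.

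**Figure D5:**
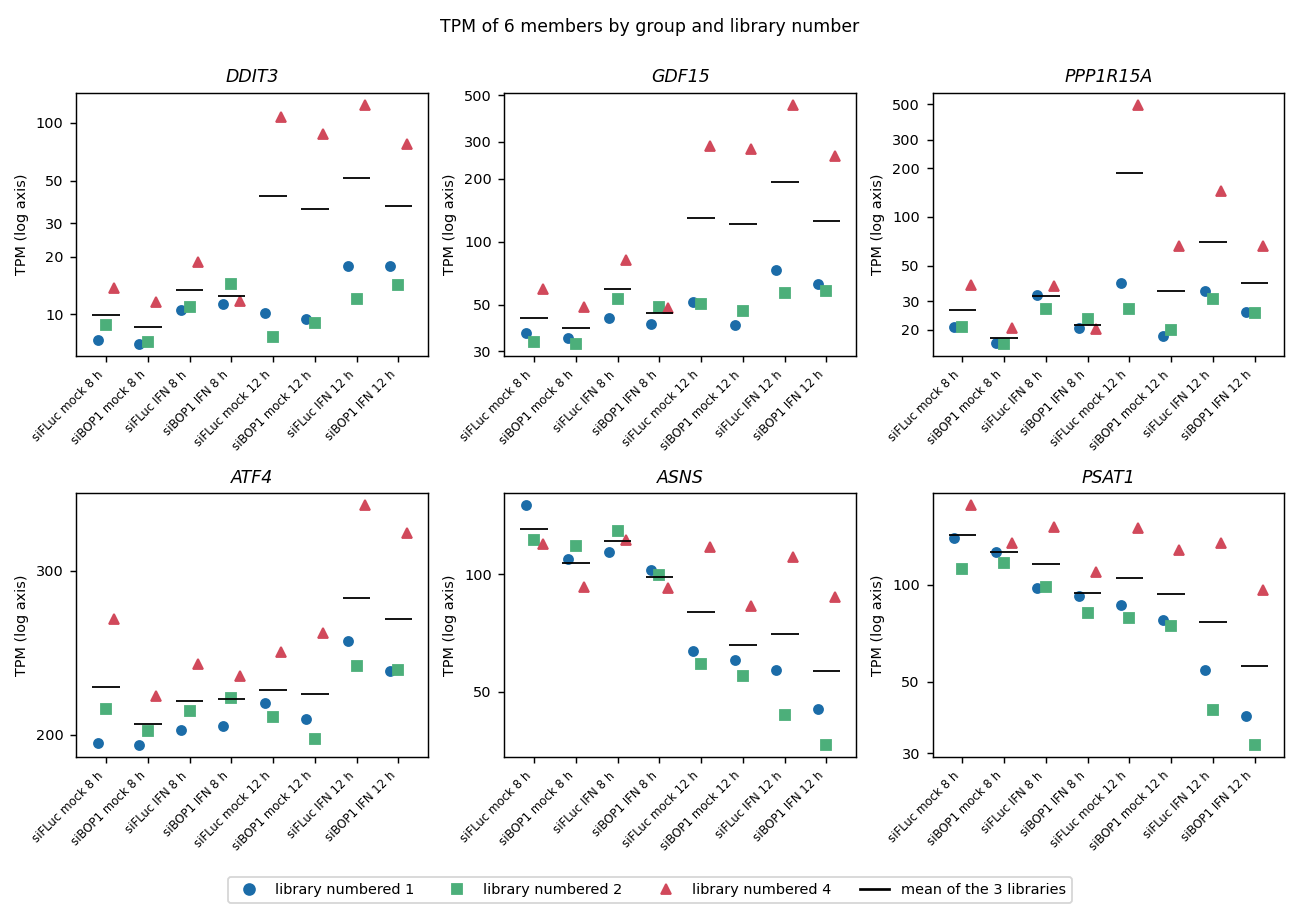
TPM (log axis) of DDIT3, GDF15, PPP1R15A, ATF4, ASNS and PSAT1 in the 8 groups; each marker is 1 library, shaped by its number, and the line is the mean of 3. At 12 h the marker of number 4 stands above the other markers of its group for all 6 genes, least so for ATF4.

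Genes of neighbouring pathways were also high in the libraries numbered 4 at 12 h (siFLuc mock, siFLuc IFN, siBOP1 mock, siBOP1 IFN). Of the 14 unfolded protein response genes 3, 3, 3 and 2 were at least 1 log2 unit higher, among them DNAJB9 (1.14, 2.04, 1.88 and 1.86) and HERPUD1 (1.30, 2.01, 1.63 and 1.78), both with roles in endoplasmic reticulum quality control. Of the 14 p53 targets 3, 5, 3 and 3 were, and all 14 were above 0 in each group. Over all 16062 tested genes, 9852, 10389, 9928 and 10180 were above 0. MDM2, the p53 ubiquitin ligase, was higher by 1.55, 1.69, 1.10 and 1.41. Of the 12 tRNA synthetases 2, 3, 0 and 1 were at least 1 log2 unit higher. PPP1R15B, the constitutive counterpart of PPP1R15A, was higher by 1.17, 1.31, 1.16 and 1.23. The medians of the 3 interferon-stimulated genes were below 0, at -0.50, -0.63, -0.36 and -0.48, though 1 of the 3 was above 0 in siBOP1 mock cells. At 8 h their medians were below 0 as well, at -0.83, -0.16, -0.30 and -0.06 in the same order. In mock cells at 12 h these genes were low, with sums of 10.6 to 18.8 TPM (siFLuc) and 12.6 to 15.6 TPM (siBOP1). The mitochondrial shares of the libraries numbered 4 at 12 h are given above, with siFLuc mock the lowest by far. The part of that share, and of these lists, in the members' levels was not tested.

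Because the spread between numbers enters the test, the calls were repeated on the libraries numbered 1 and 2 alone. Each group then held 2 libraries. The list was set out by these numbers, so the members' counts describe it and carry no test against the share of all genes. The members past the threshold with IFN were then 9, 17, 10 and 20 of 33 (siFLuc 8 h, siFLuc 12 h, siBOP1 8 h, siBOP1 12 h), against 16.0%, 21.2%, 21.8% and 23.9% of all genes (limma). Besides ATF3 and DDIT3, given above, they included SLC38A2, a neutral amino acid transporter, at 0.44 in siFLuc cells at 12 h (adjusted p = 0.00283) and 0.45 in siBOP1 cells (adjusted p = 0.00212). PCK2, a mitochondrial enzyme of gluconeogenesis, differed by -0.62 in siFLuc cells at 12 h (limma adjusted p = 0.0136) and ASNS by -0.49 in siBOP1 cells at 12 h (adjusted p = 0.0206). For siBOP1 against siFLuc the counts were 3, 4, 3 and 3 (mock 8 h, mock 12 h, IFN 8 h, IFN 12 h), against 2.53%, 1.80%, 3.67% and 0.629% of all genes.

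The times were compared in mock cells only, 12 h minus 8 h. In all libraries 0 of 33 members passed with either siRNA, against 0.131% of all genes with siFLuc and 0.230% with siBOP1 (limma). On the libraries numbered 1 and 2 alone, 3 members passed with each siRNA, against 1.64% and 1.23% of all genes, counts that likewise only describe the list. ASNS was at 150.3, 123 and 119.8 TPM at 8 h and 63.7, 59.0 and 118 TPM at 12 h with siFLuc, and at 109.7, 118 and 92.5 TPM and 60.1, 54.9 and 82.8 TPM with siBOP1. All 12 h libraries were below all 8 h libraries of the same siRNA, and those numbered 4 came nearest. Without number 4 the ASNS differences were -1.13 and -0.98 (limma adjusted p = 0.00242 and 0.0058). The others were CBS (-0.78 and -0.75, adjusted p = 0.0196 and 0.0266 in limma), ATF3 with siFLuc (0.98, adjusted p = 0.0297) and PSAT1 with siBOP1 (-0.67, adjusted p = 0.0452). Time from transfection and time from mock stimulation cannot be told apart in this comparison.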

How the data were processed

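Polyadenylated RNA of 24 libraries was measured. The deposited table gives TPM per gene; the aligner, quantifier, genome build and any filter are not given in the sources used here. TPM keep no read depth, so no counting error can be given. Per the labels, replicates are numbered up to 3 in each group, while the table's columns are numbered 1, 2 and 4: 16 columns matched a labelled replicate and 8, numbered 4, matched only their group. There were 0 unmatched columns, and 0 pairs of columns were identical. Of 60609 rows, 60340 had a symbol. Nothing says that replicates were separate cultures, so p-values measure only the spread between these libraries, which may be technical.

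Values were analysed as log2(TPM + 1) for the 16062 genes that reached 1 TPM in 3 or more libraries. Means of the 8 groups were fitted together over the 24 libraries with limma 3.58.1 in R 4.3.3 (trended empirical Bayes variance), and p-values were adjusted by Benjamini-Hochberg over all tested genes, with a threshold of 0.05. The added 1 makes differences of low genes smaller than those of their TPM. BOP1 was tested by exact permutation. The fit was tested on simulated data with known changes. Same-numbered libraries deviated together: within a time, all 24 correlations of their deviations from group means were over 0.1 (0.115 to 0.508), so the fit with the number as a block is given wherever it changed a call. At 12 h, where number 4 stands apart, numbers 1 and 2 share deviations from a mean that holds it. The numbering comes from the column names.

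The members and all gene lists were chosen with earlier results of these data known. A member past the threshold with or without the block is given with its values in every library. Standard errors and adjusted p are given for at most 3 members per role and comparison, those of largest difference. Of other lists, up to 3 genes per comparison past the threshold are named. The alternatives tried were a pseudocount of 0.1, no level filter, median-of-ratios rescaling, quantile normalization, only the groups compared, the replicate block, numbers 1 and 2 alone, each library left out, and the 4 libraries numbered 4 at 12 h left out together. Promoters are from RefSeq, GRCh38.p14, matched by gene symbol. Gene positions and 3′ UTRs are from GENCODE 29 (GRCh38), matched by Ensembl gene identifier without its version number. Figures were drawn with matplotlib 3.10.9 in Python 3.11.15.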

Additional observations from a re-analysis of the deposited data

Results flagged for a closer look

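In 3 cases all 3 libraries moved one way in one comparison and the opposite way in a matching one, each by number. NUPR1 differed between siBOP1 and siFLuc by 0.10 under mock at 12 h and by -0.12 under IFN at 12 h, a change of -0.2211, and its interaction did not pass the threshold (limma adjusted p = 1). CTH differed between IFN and mock by -0.14 in siFLuc cells and 0.19 in siBOP1 cells at 8 h, a change of 0.3297, and its interaction did not pass either (limma adjusted p = 1). CHAC1 differed between IFN and mock in siBOP1 cells by -0.15 at 8 h and 0.70 at 12 h, a change of 0.8544 that was not tested.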

How the results depend on the processing

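Counts of members past the threshold are given for IFN against mock (siFLuc 8 h, siFLuc 12 h, siBOP1 8 h, siBOP1 12 h) and for siBOP1 against siFLuc (mock 8 h, mock 12 h, IFN 8 h, IFN 12 h). As reported they were 1, 3, 2 and 4 for IFN and 2, 1, 1 and 2 for the siRNA. With the replicate block they were 6, 12, 13 and 10, and 4, 7, 4 and 3. On the libraries numbered 1 and 2 alone they were 9, 17, 10 and 20, and 3, 4, 3 and 3, with 3 and 3 members for time in siFLuc and siBOP1 mock cells. With the libraries numbered 4 at 12 h left out together, an alternative chosen after seeing the data, they were 5, 8, 8 and 9, and 2, 1, 3 and 1, with 2 and 2 for time. Fits of only the groups compared gave 1, 0, 8 and 2 members, and 1, 1, 0 and 0. Without the level filter they were 1, 2, 1 and 3, and 1, 1, 1 and 2. Median-of-ratios rescaling gave 2, 3, 2 and 4, and 2, 1, 2 and 2, and quantile normalization 2, 3, 3 and 3, and 2, 1, 2 and 2. A pseudocount of 0.1 gave the reported counts. Leaving out 1 library gave 0 to 1, 1 to 4, 1 to 2 and 2 to 5 for IFN, 1 to 1, 1 to 1, 1 to 2 and 0 to 2 for the siRNA, and 0 for interactions and time. The interactions gave 0 members under every alternative run. The causes of these changes were not tested. The block was not run for time because same-numbered deviations did not go together between times (2 of 6 correlations over 0.1, -0.00373 to 0.196). Of single genes, 2 reversed: GDF15 with IFN in siFLuc cells at 12 h was between -0.49 and 1.27 when 1 library was left out, lowest without the siFLuc IFN library numbered 4, and SLC3A2 there between -0.56 and 0.000431, highest without the siFLuc mock library numbered 4. Of 43 pairs of a member and a comparison that passed with the block and not without it, 31 also passed on numbers 1 and 2 alone, 15 with the 12 h libraries numbered 4 left out, and 8 under no other alternative, fits without 1 library not counted. Over all alternatives, 671 gene values kept direction and call, 104 passed newly and 49 lost the call. TPM give no depth, so no limit from depth could be set for low members such as CHAC1, CTH and SESN2.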
